A study of Homo sapiens with 6 samples.

Results

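Secretogranins and chromogranins, together called granins, are acidic proteins that load peptide hormones into the dense-core granules of endocrine cells and neurons. The prohormone convertases PCSK1 and PCSK2 cut granins and hormone precursors inside those granules. Synaptophysin (SYP), a vesicle membrane protein, and the ubiquitin hydrolase UCHL1 are used with chromogranin A (CHGA) to recognise neuroendocrine tumors, and MIA PaCa-2 cells have been described as staining for chromogranin A and synaptophysin although they derive from a pancreatic carcinoma of the exocrine type. The group of 10 genes described here holds the granins SCG2, SCG3, SCG5, CHGA, CHGB and VGF, the vesicle and neuronal markers SYP and UCHL1, and the convertases PCSK1 and PCSK2. They were chosen by gene name, with their FPKM values in these libraries and earlier comparisons of the groups already known, so their levels and differences are a description and carry no test here. All 10 genes were found, in 10 of the 18268 rows of the table.

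RNA was sequenced from MIA PaCa-2 cells, an established human pancreatic carcinoma line labelled as epithelial, in 6 libraries. In 3 libraries the cells carried the empty vector pCDH, and in 3 they overexpressed the long noncoding RNA LINC00901 (called OE libraries here). Both groups grew in DMEM with fetal bovine serum and horse serum, and the promoter of the construct and whether the cells were a pool or 1 clone are not stated in the labels. The labels do not say whether the replicates came from separate cultures. The p-values therefore speak only to the spread among these libraries, and that spread may be technical. FPKM, a read count scaled to gene length and library size, summed to between 87162 and 88738 in the vector libraries and between 127768 and 128538 in the OE libraries, and the sequencing depth is unknown. No row names LINC00901, so its level was not analysed here. Of 18268 rows, 3750 were listed at 0 in all 6 libraries, and a 0 in this table is given only as listed at 0.

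The promoters of CHGA, VGF and PCSK1 are shown because they carry the same DNA element. A cAMP response element is the site at which CREB, a transcription factor activated by cyclic AMP, is known to bind upstream of CHGA, VGF and PCSK1. RefSeq promoter sequences (build GRCh38.p14), which run from 250 bases before to 50 bases after a gene's start, were found for 8 of the 10 genes in 10 windows, and SCG2 and CHGB had no entry. The palindrome TGACGTCA, capitalised below, lay in 3 of the 10 windows and in 1.85% of 35116 promoters of the same length. It began 54 bases before the start of CHGA (chr14:92923070-92923129, plus strand), 79 bases before that of VGF (chr7:101165615-101165674, minus strand) and 77 bases before that of PCSK1 (chr5:96433292-96433351, minus strand). Each line below gives the 60 bases around it, 5′ to 3′ on the gene's strand.
CHGA: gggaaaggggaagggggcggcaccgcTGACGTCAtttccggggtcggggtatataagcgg
VGF: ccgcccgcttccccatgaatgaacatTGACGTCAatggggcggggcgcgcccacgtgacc
PCSK1: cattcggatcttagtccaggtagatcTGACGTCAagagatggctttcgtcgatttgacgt
Both strands were searched for every motif. The half-site TGACG, which every full element also contains, was present in windows of 6 of the 8 genes and in 24.6% of all promoters, the AP-1 motif TGANTCA in the window of SYP and in 7.71%, and the EGR motif GCGNGGGCG in windows of CHGA, VGF, SYP and PCSK2 and in 9.43%. These matches describe the letters of the windows only. CHGA was lower in the OE libraries, though its groups nearly met, VGF had overlapping groups, and PCSK1 was listed at 0 in 5 of the 6 libraries. Whether the element bears on these levels was not tested, and CHGA and PCSK1 had a mean under 1 FPKM.

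SCG2, the precursor of the neuropeptide secretoneurin, was the one member with a much higher level in the OE libraries. It stood at 1.52, 1.95 and 1.28 FPKM in vector replicates 1 to 3 and at 11.63, 9.88 and 12.08 FPKM in OE replicates 1 to 3. Every OE library thus lay far above every vector library, and the means were 11.2 ± 1.16 against 1.58 ± 0.339 FPKM (SD, n = 3), a 7.07-fold ratio. The values of all genes below were compared as log2(FPKM + 0.5), a scale that understates changes of low genes. On that scale the median of the 9694 rows with a mean of at least 1 FPKM was 0.27 higher in the OE libraries (1.20-fold), and differences are given relative to it. The median over rows of all levels was 0.00, but it includes the 3750 rows listed at 0 in every library, which cannot differ. It therefore cannot say whether low rows carry the shift. For members under 1 FPKM the difference before the shift is given as well. The relative log2 difference of SCG2 was 2.23 (SE 0.16), and leaving out each library in turn gave 2.12 to 2.36. A rank within a library does not depend on its scaling. It does depend on how many rows were detected, with 12728 to 12807 rows above 0 in the vector libraries and 13276 to 13428 in the OE libraries. A low row can therefore rank further down in the OE libraries without a lower level. SCG2 ranked 8525th, 7870th and 9008th by FPKM in the vector libraries, near VGF and UCHL1, and 2239th, 2635th and 2124th in the OE libraries.

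**Figure D1:**
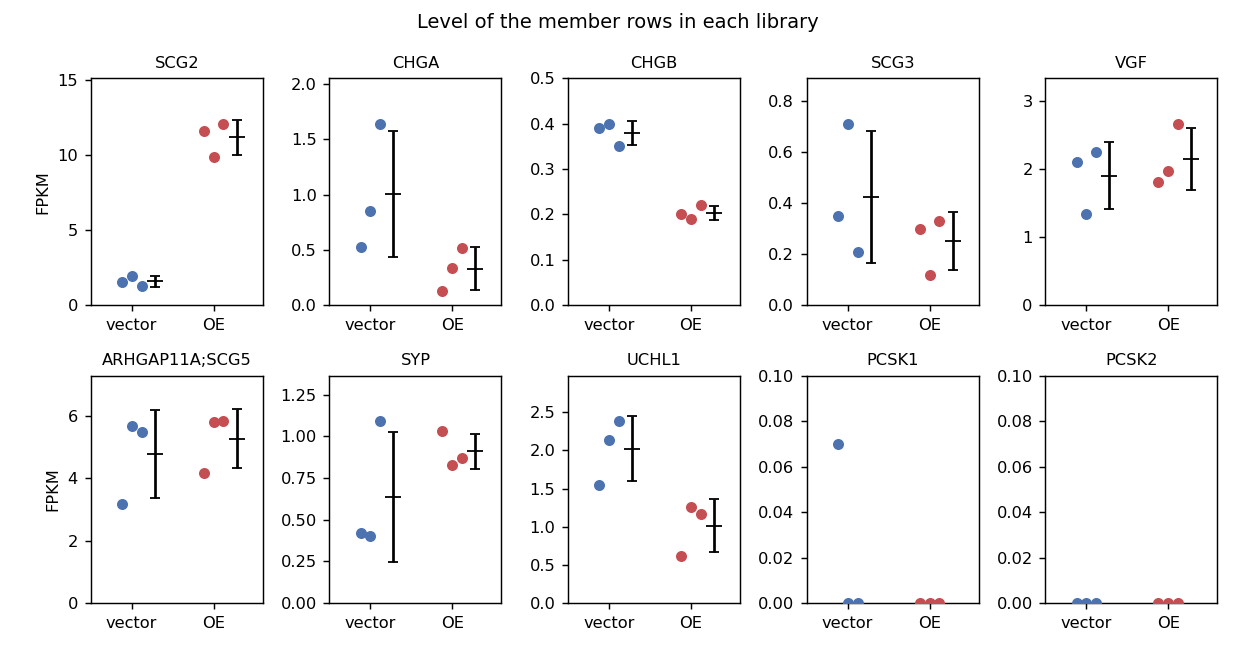
FPKM of each member row (y axes, each panel with its own scale from 0) in the 3 vector and 3 OE libraries; points are libraries, and black bars are means with SD, left out for PCSK1 and PCSK2, which were listed at 0 in most libraries. SCG2 is higher in every OE library, CHGA, CHGB and UCHL1 are lower in every OE library, and the groups overlap for the other members.

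CHGA, the precursor of vasostatin and pancreastatin and the standard blood marker of neuroendocrine tumors, ran the other way. Its level was 0.53, 0.85 and 1.64 FPKM in the vector libraries and 0.13, 0.34 and 0.52 FPKM in the OE libraries. The groups did not overlap, but the highest OE library (0.52) and the lowest vector library (0.53) nearly met, and by rank within the library they did overlap (10398 in OE replicate 3 and 10488 in vector replicate 1). The means were 0.33 ± 0.195 against 1.01 ± 0.571 FPKM (SD, n = 3), and the relative log2 difference was -1.09 (SE 0.37), or -0.80 without vector replicate 3. Before the median shift it was -0.82.

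CHGB, its paralogue in the granule core, was lower still but far more even. It stood at 0.39, 0.40 and 0.35 FPKM with the vector and at 0.20, 0.19 and 0.22 FPKM in the OE libraries. The groups were well separated relative to their spread, with means of 0.203 ± 0.0153 against 0.380 ± 0.0265 FPKM (SD, n = 3) and a vector level 1.87 times the OE level. The relative log2 difference was -0.59 (SE 0.03), and it ranged from -0.95 to -0.44 with a pseudocount of 0.1 or 1 in place of 0.5. Before the median shift it was -0.32.

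SCG3, which tethers CHGA to the granule membrane, stood at 0.35, 0.71 and 0.21 FPKM with the vector and at 0.30, 0.12 and 0.33 FPKM in the OE libraries. The groups overlapped, and the relative log2 difference of -0.54 (SE 0.26) became -0.32 without vector replicate 2. Before the median shift it was -0.28. VGF, the precursor of several neuropeptides, stood at 2.11, 1.34 and 2.26 FPKM with the vector and at 1.81, 1.97 and 2.67 FPKM in the OE libraries. Here too the groups overlapped, and the relative log2 difference was -0.12 (SE 0.23), against 0.15 before the median shift was taken off, so its sign depends on the scaling. SCG5 encodes 7B2, the chaperone that lets PCSK2 mature. Its only row was joined with ARHGAP11A, a gene of chromosome 15 like SCG5 that encodes a GTPase-activating protein of dividing cells, and the value cannot be assigned to either gene. The ARHGAP11A;SCG5 row stood at 3.16, 5.68 and 5.49 FPKM with the vector and at 4.17, 5.80 and 5.82 FPKM in the OE libraries, which overlap. Its relative log2 difference of -0.11 (SE 0.28) was 0.15 before the shift.

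The composition of the granin pool therefore differed between the groups. The 5 granins with rows of their own (SCG2, SCG3, CHGA, CHGB and VGF) summed to 4.90, 5.25 and 5.74 FPKM in the vector libraries and to 14.07, 12.50 and 15.82 FPKM in the OE libraries. SCG2 made up 31.0%, 37.1% and 22.3% of that sum with the vector and 82.7%, 79.0% and 76.4% with LINC00901. Without SCG2 the sums were 3.38, 3.30 and 4.46 FPKM with the vector against 2.44, 2.62 and 3.74 FPKM, and the groups overlapped. FPKM is scaled to gene length, so levels of different genes can be set roughly side by side, and these shares do not depend on the library total. The shares were not corrected for transcript length and GC content. Such a correction moved the relative log2 difference of VGF from -0.12 to -0.45 and that of SCG2 from 2.23 to 2.22.

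**Figure D2:**
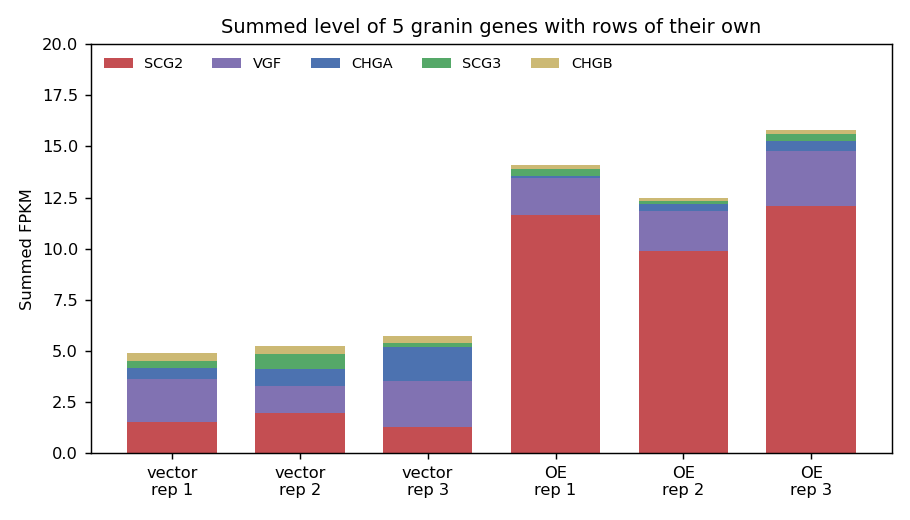
Summed FPKM (y axis) of the 5 granin genes with rows of their own in each library (x axis), stacked by gene. The OE bars reach 12.50 to 15.82 FPKM against 4.90 to 5.74 FPKM in the vector libraries, and SCG2 takes 76.4% or more of each OE bar.

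Of the 2 markers outside the granin family, UCHL1 was lower in the OE libraries and SYP was not separated. UCHL1, a neuronal enzyme that processes ubiquitin, stood at 1.55, 2.14 and 2.38 FPKM with the vector and at 0.62, 1.26 and 1.16 FPKM in the OE libraries. No OE library reached the lowest vector library, and the means were 1.01 ± 0.344 against 2.02 ± 0.427 FPKM (SD, n = 3), a relative log2 difference of -1.02 (SE 0.25). Leaving out each library in turn gave -1.16 to -0.81. SYP stood at 0.42, 0.40 and 1.09 FPKM with the vector and at 1.03, 0.83 and 0.87 FPKM in the OE libraries. Vector replicate 3 lay above all OE libraries while the other vector libraries lay below them. The relative log2 difference of SYP was 0.10 (SE 0.28), or 0.36 without vector replicate 3, and -0.03 and -0.04 without vector replicates 1 and 2. Before the median shift it was 0.36.

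The convertases were hardly seen. PCSK2 was listed at 0 in all 6 libraries, and PCSK1 was listed at 0.07 FPKM in vector replicate 1 and at 0 in the other 5 libraries. In bulk RNA, fewer cells that express a gene and less RNA of it per cell cannot be told apart, which applies to every low member here.

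In the vector libraries the members ran, by mean FPKM, from ARHGAP11A;SCG5 (4.78) through UCHL1 (2.02), VGF (1.90), SCG2 (1.58), CHGA (1.01), SYP (0.637) and SCG3 (0.423) to CHGB (0.380). Apart from the joined row, each of these overlapped the next in its replicate values. In the OE libraries SCG2 (11.2) stood first with no overlap with the joined row (5.26), followed without overlap by VGF (2.15), which did not overlap UCHL1 (1.01). UCHL1 overlapped SYP (0.910). SYP lay above CHGA (0.330) without overlap, and CHGA, SCG3 (0.250) and CHGB (0.203) overlapped each other in that order.

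**Figure D3:**
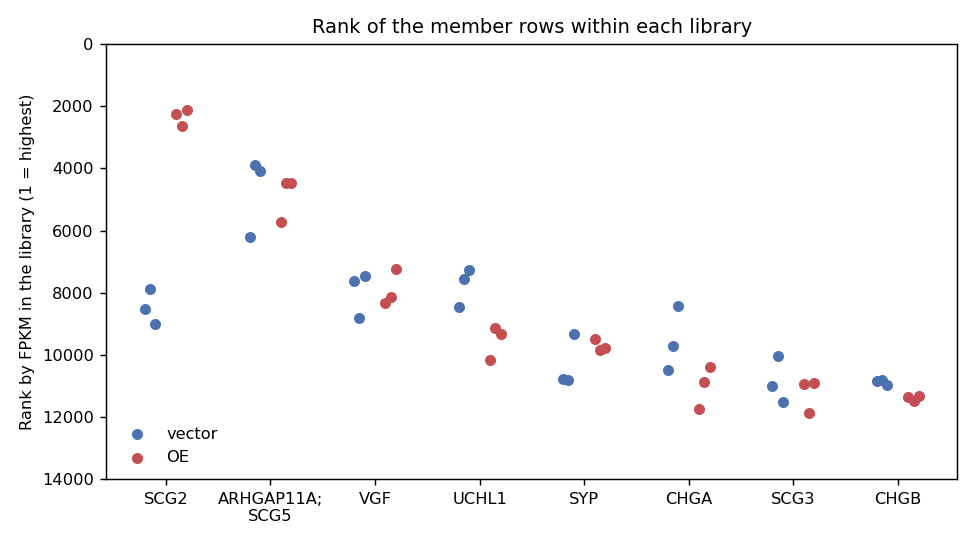
Rank of 8 member rows by FPKM within each library (y axis, 1 is the highest of 18268 rows), with vector libraries in blue and OE libraries in red. SCG2 moves from ranks of 7870 to 9008 to ranks of 2124 to 2635, the ranks of UCHL1 and CHGB are lower in every OE library, and those of the other 5 rows overlap between groups. More rows were listed above 0 in the OE libraries, which bears on the ranks of low rows such as CHGB.

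Of the 10 member rows, 4 passed the filter of a mean of at least 1 FPKM (SCG2, ARHGAP11A;SCG5, VGF and UCHL1), and 6 did not. Each of the 4 also reached that mean within either group alone. In limma, fitted across all 9694 rows, 49.2% of rows passed an adjusted p of 0.05, 37.4% higher and 11.9% lower, or 24.0% higher and 19.2% lower with each library centred on its median. Of the 4 member rows, 1 (SCG2) lay past that threshold on the higher and 1 (UCHL1) on the lower side. UCHL1 fell short of it without vector replicate 2, vector replicate 3, OE replicate 1 or OE replicate 3. The higher count stayed at 1 whichever library was left out. The members were chosen with this contrast known, so the position of each is a description and no test, and nothing is read from their count. Among tested rows the groups did not overlap for 44.9% in the higher and 15.6% in the lower direction. Among the 4824 rows with a mean above 0 and under 1 FPKM these shares were 12.2% and 13.4%, and of the 5 members in that range 2 (CHGA and CHGB) were lower without overlap and 3 overlapped.

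By the distance between gene-centred log2 values over the 6 libraries, the tested rows most like SCG2 were SNAI2 (distance 0.45), at 6.34 ± 0.626 against 0.757 ± 0.207 FPKM (SD, n = 3), and DRAP1 (0.47), at 22.7 ± 3.09 against 4.42 ± 0.133 FPKM. For the ARHGAP11A;SCG5 row they were EIF2AK2 (0.16) and YWHAB (0.23), and for VGF they were DCAF7 (0.11) and P3H1 (0.24). These distances rest on 6 libraries in 2 groups, which the rows share.

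The genes that work with the granins were taken from lists drawn up from general knowledge, and their calls come from the same fit. Unless another fit is named, adjusted p-values below belong to the unscaled difference, not to the relative difference printed beside them. Over all 13 lists, 96 of 238 rows could be tested, of which 43 were called higher and 9 lower, or 28 and 12 after median centring. Over all tested rows of the table the shares were 37.4% higher and 11.9% lower, or 24.0% and 19.2% after median centring. The count of each list below is to be read beside these shares. The median relative log2 difference of the 96 rows was 0.05, against 0 for all tested rows. Without OE replicate 1 the lower count was 5.

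Of the peptide-processing enzymes other than PCSK1 and PCSK2, 9 could be tested: 6 were called higher and 1 lower, 3 and 1 after median centring, with a median relative log2 difference of 0.21. FURIN, the convertase of the constitutive secretory pathway, rose from 2.71 ± 0.332 to 6.04 ± 0.415 FPKM (SD, n = 3); relative to the median row the log2 change was 0.77 (limma adjusted p = 0.000771). PCSK7, a related convertase, fell from 3.11 ± 0.402 to 1.55 ± 0.126 FPKM (SD, n = 3), a relative change of -1.08 (limma adjusted p = 0.00296). QPCTL, which forms N-terminal pyroglutamate, rose by 0.80 (limma adjusted p = 0.00449). PAM, which amidates peptide hormones, stood at 7.61 ± 0.131 against 5.35 ± 0.627 FPKM (SD, n = 3) and was called unscaled (limma adjusted p = 0.0107) but not after median centring (0.0904; range over 17 alternatives 0.00649 to 0.134). CPE, which trims basic residues after the convertases have cut, had overlapping groups at 3.76 ± 0.365 against 3.34 ± 0.711 FPKM (limma adjusted p = 0.426, n = 3). PCSK1N encodes proSAAS, a granin-like inhibitor of PCSK1. Vector libraries list it at 0, and it stood at 0.55, 0.68 and 1.06 FPKM with LINC00901, below the filter.

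Granule, vesicle and exocytosis genes moved in both directions. Of 9 tested dense-core granule and synaptic vesicle rows, 1 was called higher and 0 lower, and after median centring 0 and 1. The called row joins TMEM205 with RAB3D, a granule GTPase, and its vector values of 1.78, 10.77 and 9.14 FPKM vary widely, against 17.95, 21.86 and 20.65 FPKM. Its relative log2 change of 1.45 became 0.72 without vector replicate 1. Its call (limma adjusted p = 0.0423) was lost without any one of the OE libraries and after median centring (range over 15 alternatives 0.00294 to 0.157). Of 17 tested SNARE and calcium sensor rows, 6 were called higher and 2 lower, or 3 and 2 after median centring, with a median of 0.00. With a correction for transcript length and GC content the balance turned, to 1 higher and 3 lower of 15 rows. NAPB, a factor that takes SNARE complexes apart, fell from 6.57 ± 1.91 to 3.08 ± 0.404 FPKM (SD, n = 3); relative to the median row the log2 change was -1.21 (limma adjusted p = 0.012). SNAP25, the neuronal plasma membrane SNARE, stood at 1.92 ± 0.356 against 2.80 ± 0.260 FPKM (SD, n = 3) with a limma adjusted p of 0.0422, and the call was lost in 5 of the 6 fits that left out a library, all except that without OE replicate 3 (range over 16 alternatives 0.0102 to 0.114). The joined rows VAMP5;VAMP8 and VAMP2;AC129492, both of vesicle SNAREs, rose by relative log2 changes of 1.11 and 0.98 (limma adjusted p = 0.00211 and 0.000902).

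SYP and UCHL1 each have relatives by sequence family. Of 3 tested synaptophysin relatives, SYNGR1 and SYNGR2, synaptogyrins of vesicle membranes, were called higher unscaled (limma adjusted p = 0.0219 and 0.0157), and neither was called after median centring (0.102 and 0.107; ranges over alternatives 0.0174 to 0.248 and 0.0135 to 0.863). SYNGR1 was also not called without vector replicate 3, OE replicate 2 or OE replicate 3, and without OE replicate 2 the relative log2 of SYNGR1 fell from 0.33 to 0.17 and that of SYNGR2 from 0.22 to 0.11. Of the 3 other ubiquitin C-terminal hydrolases, 2 were called higher and 0 lower, and after median centring 1 and 0. BAP1, a nuclear deubiquitinase, rose from 6.77 ± 1.45 to 12.4 ± 1.13 FPKM (SD, n = 3; limma adjusted p = 0.00512). The joined row LMO7;UCHL3 had a limma adjusted p of 0.0263 and was not called after median centring (0.124) or without vector replicate 1, vector replicate 2, OE replicate 1 or OE replicate 3 (range over 14 alternatives 0.0151 to 0.124). Whether these differences differ from those of SYP and UCHL1 was not tested.

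Peptide hormones, the cargo of such granules, were seldom detected: 16 of 30 were listed at 0 in all libraries, among them the islet hormones GCG, SST, PPY and IAPP. Of the 6 tested, 4 were called higher and 2 lower, or 3 and 2 after median centring, with a median relative log2 difference of 0.50. With the length and GC correction, which leaves out the joined insulin row, 1 of 5 was called higher and 2 lower, and the median was -0.15. The joined row IGF2;INS;INS-IGF2, in which insulin cannot be told from the growth factor IGF2, rose from 2.34 ± 0.437 to 14.1 ± 0.776 FPKM (SD, n = 3; limma adjusted p = 8.46e-05). ADM, the vasodilator adrenomedullin, rose from 1.40 ± 0.481 to 4.52 ± 0.524 FPKM (SD, n = 3; limma adjusted p = 0.00172). GHRL, the ghrelin gene, was lower at 0.10, 0.38 and 0.37 FPKM against 1.47, 0.81 and 2.91 FPKM (limma adjusted p = 0.0165), and the call was lost without OE replicate 1 (0.0554; range over 16 alternatives 0.00511 to 0.0719). NTS, the neurotensin gene and the most abundant hormone of the list, named after its values were seen, fell from 83.72, 68.69 and 74.62 FPKM to 41.88, 42.32 and 42.60 FPKM (limma adjusted p = 0.000494).

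Of the 33 rows of other neuroendocrine and neuronal markers, 25 lay below the filter. Among the 8 tested rows, 3 were called higher and 2 lower, and 2 and 2 after median centring, with a median of 0.01. Of the 8 rows, 4 join several genes and cannot be assigned to the marker. Among these are SERGEF;TPH1 and L1CAM;NAA10;ARHGAP4, both called higher, the former not after median centring. ENO2, the neuronal enolase, stood at 6.75, 8.18 and 6.44 FPKM in the OE libraries against 8.84, 9.11 and 11.24 FPKM in the vector libraries. Its groups did not overlap, but its call (limma adjusted p = 0.0379) was lost without vector replicate 2, vector replicate 3, OE replicate 1 or OE replicate 3 (range over 17 alternatives 0.0026 to 0.119). The joined row COG1;SSTR2, which holds a somatostatin receptor, fell from 3.57 ± 0.475 to 2.19 ± 0.130 FPKM (SD, n = 3; limma adjusted p = 0.00884). DNER, a Notch ligand of neurons, rose from 0.867 ± 0.191 to 2.94 ± 0.531 FPKM (SD, n = 3; limma adjusted p = 0.00118). NCAM1, a neural adhesion molecule, lay below the filter at 0.29, 0.20 and 0.23 FPKM against 0.09, 0.12 and 0.11 FPKM in the OE libraries. The other untested rows of this list without overlap were DDC, NEFH, INA, CELF3 and DLL3, all lower, and SSTR5, which was higher. They were named after their values were seen. Over all rows with a mean above 0 and under 1 FPKM, 13.4% were lower and 12.2% higher without overlap.

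**Figure D4:**
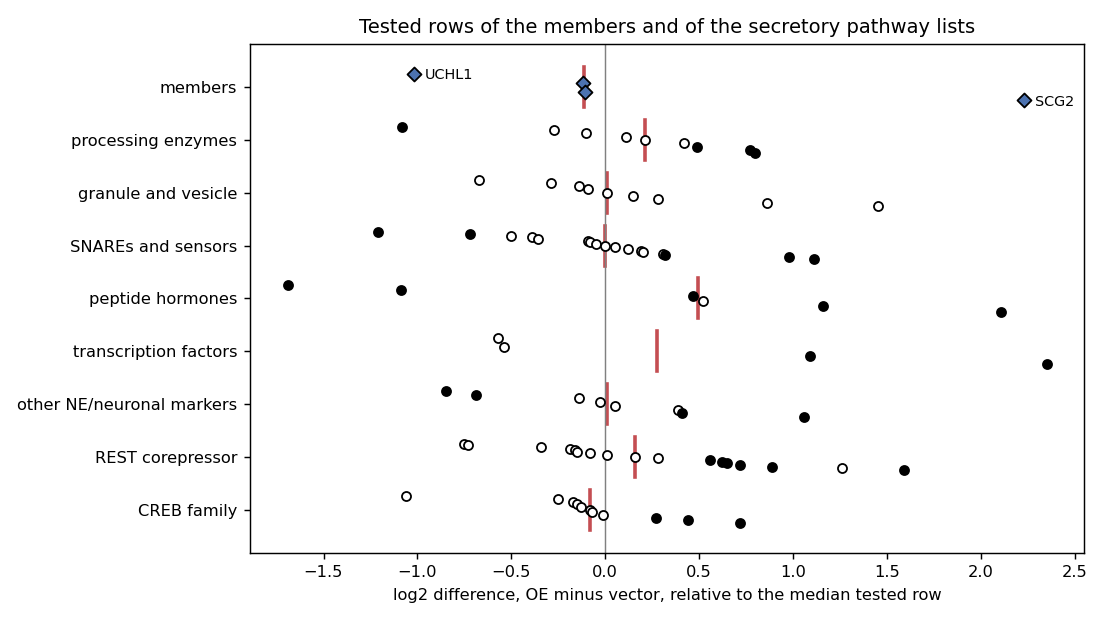
Relative log2 difference (x axis, OE minus vector, with the median tested row at 0) of every tested row in the member group and in 8 of the lists (y axis); blue diamonds are members, filled circles were called in the same direction unscaled and median-centred, open circles were not, and red bars are medians. SCG2 lies at 2.23 and UCHL1 at -1.02, and the medians of the 8 lists lie between -0.08 and 0.50, the latter that of the peptide hormones (-0.15 with the length and GC correction).

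Among regulators of neuroendocrine expression, INSM1 and NEUROD1 were near 0, REST had overlapping groups and HES1 rose. The neuroendocrine factor genes INSM1 and NEUROD1 (a row joined with CERKL) lay below the filter with overlapping groups, and their highest values were 0.14 and 0.11 FPKM. REST, the repressor of neuronal genes including many granins, stood at 7.55, 8.13 and 8.68 FPKM with the vector and at 9.20, 7.39 and 9.16 FPKM in the OE libraries, which overlap (limma adjusted p = 0.64). Of 4 tested transcription factors of the neuroendocrine and islet list, 2 were called higher and 0 lower, also after median centring. HES1, a Notch-induced transcriptional repressor, rose from 1.10 ± 0.174 to 9.36 ± 1.63 FPKM (SD, n = 3; limma adjusted p = 0.000116), and the islet factor gene MAFA rose from 0.943 ± 0.196 to 3.26 ± 0.942 FPKM (SD, n = 3; limma adjusted p = 0.00274).

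REST and genes of its corepressor complexes were called higher in 9 of 17 tested rows and lower in 0, or 6 and 0 after median centring, with a median of 0.16. Over all tested rows 37.4% were called higher and 11.9% lower, or 24.0% and 19.2% after median centring. With the length and GC correction 9 of 16 rows were called higher and 1 (HDAC1) lower. RCOR2, a corepressor of the CoREST family, rose from 0.440 ± 0.249 to 2.83 ± 0.190 FPKM (SD, n = 3; limma adjusted p = 0.000674), and HMG20B, a subunit of the same complex, rose by 0.89 on the relative log2 scale (limma adjusted p = 0.00385). RCOR1 stood at 25.91, 6.70 and 28.37 FPKM against 4.87, 5.91 and 6.13 FPKM. Its call (limma adjusted p = 0.0416) was lost in 5 of the 6 fits that left out a library, and without OE replicate 2 its relative log2 change of 1.26 became 1.90 and the call stood (range over 17 alternatives 0.000699 to 0.154). Of 11 tested genes of the CREB family and its coactivators, 3 were called higher and 0 lower, or 3 and 1 after median centring, with a median of -0.08. The row lower after centring was CREB1, named after its values were seen. It stood at 2.15, 1.48 and 1.64 FPKM in the OE libraries against 3.93, 1.91 and 5.03 FPKM, and the groups overlapped. Its relative log2 difference was -1.06 (limma adjusted p = 0.0681 unscaled, 0.0334 after median centring). With the length and GC correction it was not called. PRKACA, a catalytic subunit of the cyclic AMP-dependent kinase, rose from 5.35 ± 0.124 to 11.1 ± 0.155 FPKM (SD, n = 3; limma adjusted p = 0.00026). The coactivator gene CRTC2 and the transcription factor gene ATF2 rose by relative log2 changes of 0.44 and 0.27. Their limma adjusted p-values were 0.00517 and 0.00546 unscaled, and 0.0253 and 0.0373 after median centring.

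Markers of the labelled cell type were mixed. KRT18, an epithelial keratin, stood between 62.48 and 105.38 FPKM over the 6 libraries, whereas EPCAM and CDH1 did not exceed 0.14 FPKM. Of 5 tested epithelial and mesenchymal rows 2 were called higher and 2 lower: KRT19 rose from 3.71 ± 1.95 to 24.0 ± 1.07 FPKM (limma adjusted p = 0.000654) and VIM from 229 ± 27.5 to 577 ± 49.5 FPKM (limma adjusted p = 0.000195), while the joined row KRT8;KRT78 fell from 24.6 ± 4.27 to 15.6 ± 0.884 FPKM (SD, n = 3; limma adjusted p = 0.0096) and KRT18 fell too, named after its values were seen. Of 9 acinar markers, 8 had rows of their own, of which 6 were listed at 0 in all libraries, and the 8 summed to 0.37 to 1.09 FPKM in the vector group and 0.29 to 0.40 FPKM in the OE group; the remaining marker, CELA3A, has only a row joined with CDC42. Fibroblast, endothelial and blood cell markers other than COL3A1, in 8 rows of their own, summed to 0.98 to 1.32 FPKM in the vector libraries and 2.16 to 2.82 FPKM in the OE libraries, and COL1A1, which makes up most of the OE sums, rose (limma adjusted p = 0.00913). COL3A1, a fibrillar collagen gene, stood at 161.90 to 185.05 FPKM with overlapping groups, and the leukocyte marker PTPRC and the globin HBB were listed at 0 throughout. The part of these markers in the differences of the granins was not tested.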

How the data were processed

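RNA sequencing covered 3 vector and 3 LINC00901 OE libraries of MIA PaCa-2 cells. The authors deposited FPKM values, 1 per gene row and library written to 2 decimals or fewer. The submitters' processing notes name HISAT2, cutadapt, FastQC and the build hg19; tool versions and the program behind the FPKM values are not stated there. Ratios of low values lay near a power of 2 in 15.6% (vector) and 13.4% (OE) of cases. Small read counts also give other ratios, so these shares cannot show whether whole-read steps are present. No reads were recovered from the values, and depth is unknown. Of 18268 rows, 990 join several genes.

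Values were taken as log2(FPKM + 0.5). Rows with a mean of at least 1 FPKM (9694) were fitted across all genes with limma 3.58.1 (R 4.3.3, trend, no block), with Benjamini-Hochberg adjustment and a threshold of 0.05; the fit was tested on simulated data. Log2 differences are relative to the median tested row, while adjusted p-values come from the fit without centring. The members and lists were chosen with earlier results of these data known. Genes named were the 10 members, 12 fixed regulators and partners (1 of which is not reported here), and up to 3 called, non-overlapping rows of each list by size of relative change. There were 16 alternatives planned and 2 added after seeing the data (a correction for transcript length and GC content from GENCODE 29, known for 91.1% of tested rows, and leaving out joined rows). Replicate numbers did not pair the libraries.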

Additional observations from a re-analysis of the deposited data

How the results depend on the processing

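The alternatives were 16 planned and 2 added. The members' counts are a description. The count on the lower side (UCHL1 only) was 0 with a mean of at least 5, where UCHL1 is not tested, and with a threshold of 0.01. It was also 0 without vector replicate 2, vector replicate 3, OE replicate 1 or OE replicate 3, and 1 without vector replicate 1 or OE replicate 2. Over all genes, 3621 higher and 1152 lower became 2396 and 422 with a mean of at least 5, 1865 and 2024 with quantile normalization, 2331 and 1866 with median centring, 2287 and 594 at a threshold of 0.01, and 1838 higher with the length and GC correction. In the companion lists, 43 higher and 9 lower became 25 and 4 with a mean of at least 5, 24 higher with quantile normalization, 28 higher with median centring, 27 and 4 at a threshold of 0.01, and 23 higher with the length and GC correction. Leaving out a library gave 34 to 41 higher and 5 to 9 lower. The sign of the joined row EIF4A1;CD68;SENP3 turned with quantile normalization (relative log2 -0.03). With the length and GC correction the relative log2 difference was 2.22 for SCG2, -1.41 for UCHL1 and -0.45 for VGF. Same-numbered libraries of the 2 groups did not deviate together (correlations -0.037, -0.006 and -0.005). With the replicate number as a block, 3262 rows were called higher and 965 lower, in the lists 39 and 8, and ENO2 and SNAP25 were not called. Unknown depth limits what can be said of rows under 1 FPKM. The length and GC correction gave 4 higher and 1 lower of 9 processing enzymes, 0 and 1 of 7 granule and vesicle rows, 0 and 0 of 3 synaptophysin relatives and of 2 ubiquitin hydrolases, and 1 and 1 of 4 other neuroendocrine markers. Among other named rows, it ended the calls of BAP1 (adjusted p = 0.0932), CRTC2 (0.159), SYNGR1 (0.248), SYNGR2 (0.863) and RCOR1 (0.0621), quantile normalization that of ATF2 (0.121), and the fit without a filter those of NAPB (0.0542) and GHRL (0.0719), all in limma.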

Other observations

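Several regulators and granule genes of the lists lay below 1 FPKM and were not tested, but had groups that did not overlap. Of 105 list rows with a mean above 0 and under 1 FPKM, 11 were higher and 13 lower in every OE library; over all such rows of the table the shares were 12.2% and 13.4%. The rows below were picked after their values were seen.

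DBH and DDC, enzymes of catecholamine synthesis, were lower in every OE library, with DBH at 0.48, 1.23 and 0.18 FPKM with the vector against 0.14, 0.08 and 0.08 FPKM and DDC at 0.87, 0.50 and 0.27 against 0.09, 0.14 and 0.20 FPKM, whereas the groups of TH, another enzyme of that pathway, overlapped. INSM2, a paralogue of INSM1, stood at 0.56, 0.54 and 0.56 FPKM against 0.03, 0.14 and 0.11 FPKM. In the other direction, HID1, which is needed for dense-core granule formation, stood at 0.85, 0.84 and 0.72 FPKM in the OE libraries against 0.27, 0.26 and 0.26 FPKM, and the secretory GTPase gene RAB3B at 0.90, 1.05 and 0.90 against 0.27, 0.22 and 0.37 FPKM.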
